A study of Mus musculus with 6 samples.

Results

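The genes described here are 38 members of the DNA replication fork and deoxynucleotide supply chosen by symbol from a list, in a table of 23565 genes. They comprise 3 genes that control entry into S phase, 5 that make or salvage deoxynucleotides, 2 that remove uracil or recognise mismatches, 9 subunits of the replicative polymerases, 6 of the sliding clamp and its loader, 3 of the single-strand binding protein, 2 that finish lagging strands, 2 that protect forks and 6 that rebuild chromatin behind them. The MCM helicase and licensing genes were left out of the group. All 38 passed the filter on low counts and were tested. Clspn, Hells and Pola1 fell short of the filter's level in at least 1 Hopx-CreER library and passed through the Lgr5-CreER libraries, where they were higher.

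Epithelial cells were sorted from mouse small-intestinal crypts and profiled by bulk RNA sequencing. Mice of one genotype, HopXCreER::Rosa26LSL-tdTomato, carry a tamoxifen-inducible Cre at Hopx and gave tdTomato-positive cells (the Hopx-CreER group, 3 libraries). Mice of the other, Lgr5eGFP-IRES-CreER::Rosa26LSL-tdTomato, gave cells positive for both eGFP and tdTomato (the Lgr5-CreER group, 3 libraries). Every mouse received 1 mg of tamoxifen and crypts were taken 16 h later, so the groups share the reporter, the dose and the time but differ in driver and in sorting gate. There was no group without tamoxifen or without a gate, and the sources used here do not give age. The tdTomato gate marks cells in which Cre was active and their descendants over those hours, while the double gate also requires the Lgr5 reporter itself. The series description speaks of 3 mice per genotype, but column names do not tie each library to a mouse and 2 Lgr5-CreER columns (libraries 2 and 3) carry the same number, so p-values measure the spread between these libraries.

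Copying a genome needs balanced deoxynucleotides, a primer, processive polymerases held by the clamp PCNA, protection of single strands, joining of the lagging pieces and reassembly of nucleosomes with their DNA methylation. Much of this machinery is transcribed in a burst as cells pass from G1 into S phase, driven by E2F factors. In the crypt, Lgr5-positive columnar stem cells and the transit-amplifying cells above them divide often, whereas Hopx has been used to mark slower-cycling cells near the fourth crypt position as well as part of the Lgr5 population.

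Promoter sequences help to place the members in that programme, and 33 of the 38 matched a RefSeq promoter window (GRCm38.p6, mouse), which runs from 250 bases before to 50 bases after a gene's start. An E2F-type match was searched on both strands as TTTCCCGC, TTTGGCGC, TTTGCCGC or TTTCGCGC. It occurred in 11 of the 33 members with a window, namely Clspn, Dnmt1, Hells, Lig1, Msh6, Pola1, Pold1, Pold3, Pole2, Rfc3 and Uhrf1, and in 2.6% of all 27025 genes with a window. CCAAT, the letters bound by NF-Y, occurred in 17 of the 33 and in 41.1% of all genes, and TTTGAA, the core of the cell-cycle homology region of later cell-cycle genes, in 3 of the 33 and in 20.2% of all genes. These are matches of letters, not shown binding sites. The 30 bases around the match are printed for 6 members that recur in the results, in the gene's own direction and with the match in capitals (read on the opposite strand for Pola1). For Dnmt1 and Rfc3, which hold a further match, 1 is marked. They come from chr7:100121467-100121496 (Pold3, minus strand), chr17:87975054-87975083 (Msh6, plus), chr9:20952574-20952603 (Dnmt1, minus), chr19:38930917-38930946 (Hells, plus), chrX:93632275-93632304 (Pola1, minus) and chr5:151651200-151651229 (Rfc3, minus).
Pold3: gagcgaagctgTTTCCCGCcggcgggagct
Msh6: ctcctcccgacTTTCCCGCcagcggcggcc
Dnmt1: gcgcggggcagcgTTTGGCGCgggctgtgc
Hells: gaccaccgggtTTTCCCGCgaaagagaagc
Pola1: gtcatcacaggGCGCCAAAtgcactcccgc
Rfc3: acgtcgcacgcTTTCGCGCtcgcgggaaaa

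The subunits of ribonucleotide reductase, Rrm1 and Rrm2, lay on opposite sides in the comparison of the groups, so the 250 bases before the start of each are printed for a side-by-side view, with CCAAT in capitals. Neither window held any of the E2F-type letters searched. The Rrm1 stretch (chr7:102441445-102441694, plus strand) held CCAAT with its first letter 91 and 45 bases before the start, and the Rrm2 stretch (chr12:24708004-24708253, plus strand) held it 50 bases before the start.
Rrm1: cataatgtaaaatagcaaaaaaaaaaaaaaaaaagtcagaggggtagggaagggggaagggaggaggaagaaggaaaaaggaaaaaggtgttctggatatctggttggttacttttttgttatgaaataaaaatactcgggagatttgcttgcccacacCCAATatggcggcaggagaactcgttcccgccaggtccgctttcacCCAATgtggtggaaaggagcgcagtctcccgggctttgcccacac
Rrm2: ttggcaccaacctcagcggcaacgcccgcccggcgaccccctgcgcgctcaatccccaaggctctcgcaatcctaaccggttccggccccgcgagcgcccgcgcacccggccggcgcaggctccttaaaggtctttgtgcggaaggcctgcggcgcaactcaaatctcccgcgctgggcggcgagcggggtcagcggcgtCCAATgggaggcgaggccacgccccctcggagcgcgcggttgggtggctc

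Each library held between 10839306 and 14570555 counts. Levels are given as CPM, the counts of a gene as a share of its library's total after TMM scaling, and a single count equals 0.067 to 0.093 CPM. Hopx-CreER library 3, the only one whose column name carries a further tag after the gate, stood apart. The column name does not say what the tag means. The SD of log2 differences over genes was 0.551 to 0.576 between that library and the other Hopx-CreER libraries, against 0.32 between Hopx-CreER libraries 1 and 2. Among Lgr5-CreER libraries it was 0.318 and 0.331 for the pairs with library 1, and 0.249 between libraries 2 and 3, whose columns share a number. Epithelial markers were present as the labelled tissue requires, and the 5 listed summed to 11230 to 11900 CPM in Hopx-CreER and 8068 to 8369 CPM in Lgr5-CreER libraries. Of 12 immune, stromal and endothelial markers, the 10 in the table summed to at most 7.95 CPM in any library, and Col1a1 and Cdh5 were at 0 in all. Of 10 Lgr5 stem cell markers, 9 were lower in Hopx-CreER cells by edgeR's adjusted p and summed to 3368 to 5225 CPM against 10706 to 11217 CPM. Markers of differentiated cells moved the other way: 9 of 10 Paneth, 8 of 9 goblet, 10 of 10 enteroendocrine, 8 of 9 tuft and 10 of 12 enterocyte genes tested were higher in Hopx-CreER cells, by the same test. Summed over their lists in Hopx-CreER and then Lgr5-CreER libraries, Paneth markers reached 14979 to 32572 against 1666 to 3268 CPM, goblet 7080 to 10655 against 2061 to 2730 CPM, and enteroendocrine 3364 to 8801 against 190 to 316 CPM. Tuft markers reached 255 to 1187 against 130 to 196 CPM, and enterocyte markers 2220 to 4155 against 986 to 1266 CPM. The part of these cell types in the results on replication genes was not tested beyond the scaling: with these differentiated markers left out before scaling, the members' median log2 fold change was -0.23, against -0.24 with them, and 1 member was called either way. That refit tested 12368 genes against 12439 and left the members' counts unchanged, so it cannot show the part of the cell mixture. In bulk RNA fewer cells of a type and less RNA per cell cannot be told apart.

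The replication genes were expressed in both groups, at a somewhat lower summed level in Hopx-CreER cells. Summed over the 38 members, they reached 4261, 4017 and 4204 CPM in Hopx-CreER libraries 1, 2 and 3, against 5082, 4713 and 4843 CPM in Lgr5-CreER libraries 1, 2 and 3, a mean of 4161 ± 128 against 4880 ± 187 CPM (SD, n = 3 each) and a ratio of 0.853. Every Hopx-CreER library thus lay below every Lgr5-CreER library in this sum. The members took 0.390% to 0.412% of the counts of a Hopx-CreER library and 0.497% to 0.521% of an Lgr5-CreER library.

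Gene by gene, 1 of the 38 members fell in Hopx-CreER cells and 0 rose at an adjusted p under 0.05 in edgeR's quasi-likelihood test, where 12.8% of all 12439 genes tested were called (3.3% lower and 9.45% higher). The member that fell was Rrm1. DESeq2 called 4 lower and 0 higher members, where the shares were 3.17% and 6.7% of 21122 genes with any count, a wider base than edgeR's. For limma-voom 2 members were lower and 0 higher (3.3% and 9.08% of the 12439 genes). Scaling by library totals alone called 7 lower and 0 higher members, where 5.86% of all genes were lower and 7.54% higher, and GC offsets called 3 lower and 1 higher, where the shares were 5.51% and 9.1%. Over all genes the split of 410 lower and 1176 higher calls became 729 and 938 with library totals and 685 and 1132 with GC offsets. The count rested on the libraries entered, since leaving out Hopx-CreER library 1, 2 or 3 gave 4, 0 and 5 lower members, and leaving out any single Lgr5-CreER library gave 0. The share of all genes called lower in those fits ran from 0.911% to 4.6%. At an unadjusted p under 0.05, 13 members were lower and 1 was higher, against 11.1% and 16.3% of all genes. At an adjusted p under 0.01, 0 members were called, against 5.26% of all genes.

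Small differences pointed mostly one way. The log2 fold change of Hopx-CreER over Lgr5-CreER cells was negative for 32 members and at or above 0 for 6 (Ccne1, Rrm2, Tyms, Tk1, Rfc4 and Rpa3), whereas 52.8% of all genes tested were below 0. Members' values ran from -1.05 to 0.40 with a median of -0.24, and the median of all genes was -0.033. The lowest values were those of Clspn, Pola1 and Hells, which passed the filter through the Lgr5-CreER libraries, so their direction is not independent of the filter. They count among the 32 negative members, and Pola1 also among the 15 separated downward. With library totals alone the median of all genes moved by -0.11 and that of the members was -0.35, which left the members -0.20 from all genes in either case. All 3 Hopx-CreER libraries lay below all 3 Lgr5-CreER libraries for 15 members and above them for 2 (Rrm2 and Tk1), and the other 21 overlapped. Over all genes, 16.2% were separated downward and 18.8% upward. The sign of Tyms, Pole2, Rfc3 and Rfc4 changed under at least 1 other way of processing.

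**Figure D1:**
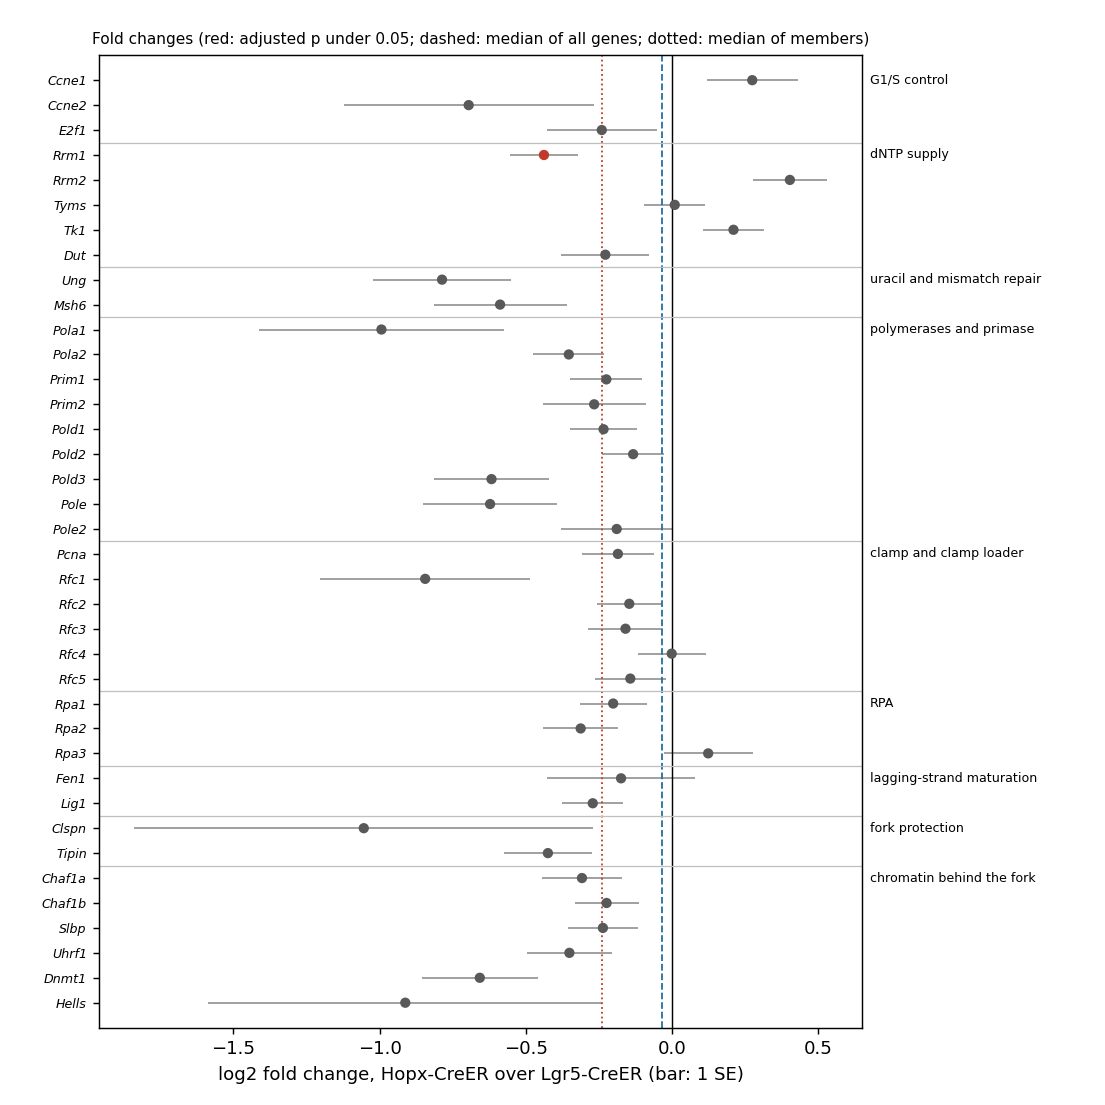
Log2 fold change of Hopx-CreER over Lgr5-CreER cells for the 38 members, grouped by role (points, edgeR estimates, red where called; bars, 1 SE; dashed line, median of all genes; dotted line, median of members). Rrm1 at -0.44 is the called member, 32 points lie below 0, and Rrm2 is the highest at 0.40.

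Across the members, the medians of log2 level against the Lgr5-CreER mean were -0.23, -0.30 and -0.20 in Hopx-CreER libraries 1, 2 and 3, and 0.013, -0.028 and -0.014 in the Lgr5-CreER libraries. The 3 Hopx-CreER libraries were alike in this median, but their spread was not. Library 3 held the long tail, reaching down to -2.12 for Hells, while other members lay above the Lgr5-CreER mean. Of the 38 members, 27, 28 and 22 lay below the lowest Lgr5-CreER library in Hopx-CreER libraries 1, 2 and 3. The matching share of all genes was not computed, so these counts do not show a trait of the members.

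**Figure D2:**
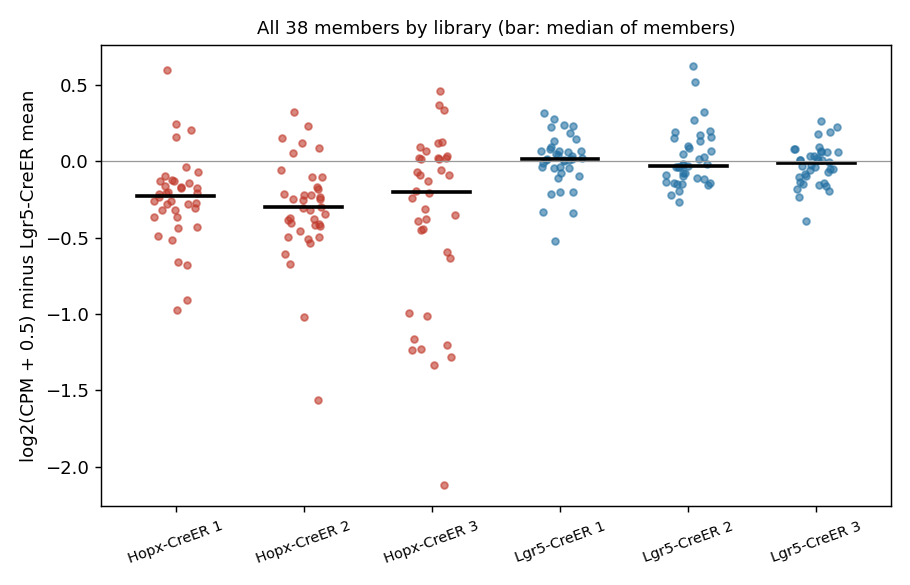
Each member's log2(CPM + 0.5) minus its Lgr5-CreER mean, by library (points, members; bars, median of members). The Hopx-CreER medians sit at -0.23, -0.30 and -0.20 and the Lgr5-CreER medians near 0, with the lowest point, Hells at -2.12, in Hopx-CreER library 3 and the next, Clspn at -1.56, in Hopx-CreER library 2.

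None of the 3 genes that bring cells into S phase passed the test in edgeR, DESeq2 or limma-voom, and 0 had an unadjusted p under 0.05. Ccne1 (ENSMUSG00000002068.16, chr7:38097984-38107534), which encodes cyclin E1, the partner of CDK2 at the G1/S boundary, stood at 55.9, 51.3 and 65.1 CPM in Hopx-CreER libraries 1, 2 and 3, against 47.4, 41.0 and 53.8 CPM in Lgr5-CreER libraries 1, 2 and 3. These ranges overlapped, with a log2 fold change of 0.28 ± 0.16 (SE) and an edgeR adjusted p of 0.292. Its paralogue Ccne2 was near the floor, at 1.11 to 2.87 CPM against 2.61 to 4.40 CPM (edgeR adjusted p 0.333). E2f1, an activating E2F factor that switches on much of the replication programme, ran from 41.5 to 61.8 CPM against 51.7 to 73.3 CPM (log2 fold change -0.24 ± 0.19, edgeR adjusted p 0.449).

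Ribonucleotide reductase makes deoxynucleotides from ribonucleotides, with RRM1 as the large catalytic and regulatory subunit and RRM2 as the small, radical-bearing subunit whose amount limits the enzyme in dividing cells. Rrm1 (ENSMUSG00000030978.10, chr7:102441695-102469771, plus strand) stood at 379, 340 and 294 CPM in Hopx-CreER libraries 1, 2 and 3, against 472, 462 and 436 CPM in Lgr5-CreER libraries 1, 2 and 3. The groups did not overlap, and library 3 was the lowest of all 6. The means were 337 ± 42.4 and 457 ± 18.9 CPM (SD, n = 3 each), and Rrm1 fell by 0.44 ± 0.12 (SE) on the log2 scale with an edgeR adjusted p of 0.0389. That call sat near the threshold: the adjusted p was 0.032 without Hopx-CreER library 1 and 0.0457 without library 3, but 0.0951 without library 2, and 0.119, 0.126 and 0.0925 without Lgr5-CreER libraries 1, 2 and 3. It was also lost when the Lgr5-CreER columns sharing a number were summed (0.104) and with offsets for transcript GC content, where the log2 fold change was -0.24 and the adjusted p 0.167.

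Rrm2 (ENSMUSG00000020649.11, chr12:24708241-24714146, plus strand) stood at 192, 149 and 163 CPM in Hopx-CreER libraries 1, 2 and 3, against 132, 115 and 134 CPM in Lgr5-CreER libraries 1, 2 and 3. Here every Hopx-CreER library was above every Lgr5-CreER library, the reverse of Rrm1. The log2 fold change was 0.40 ± 0.13 (SE) and the edgeR adjusted p 0.0713, which passed the threshold under GC offsets alone of the alternatives run (0.52, adjusted p 0.0337).

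Since every Hopx-CreER library was lower for Rrm1 and higher for Rrm2, the ratio of the subunit transcripts had to separate the groups. It adds no evidence to the values above. The ratio of Rrm1 CPM to Rrm2 CPM was 1.97, 2.28 and 1.80 in the Hopx-CreER libraries and 3.57, 4.04 and 3.25 in the Lgr5-CreER libraries, a mean of 2.02 ± 0.246 against 3.62 ± 0.394 (SD, n = 3 each). The ratio was chosen after the values of both genes were seen and is given as a description with no test, and it is a ratio of counts not corrected for transcript length.

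**Figure D3:**
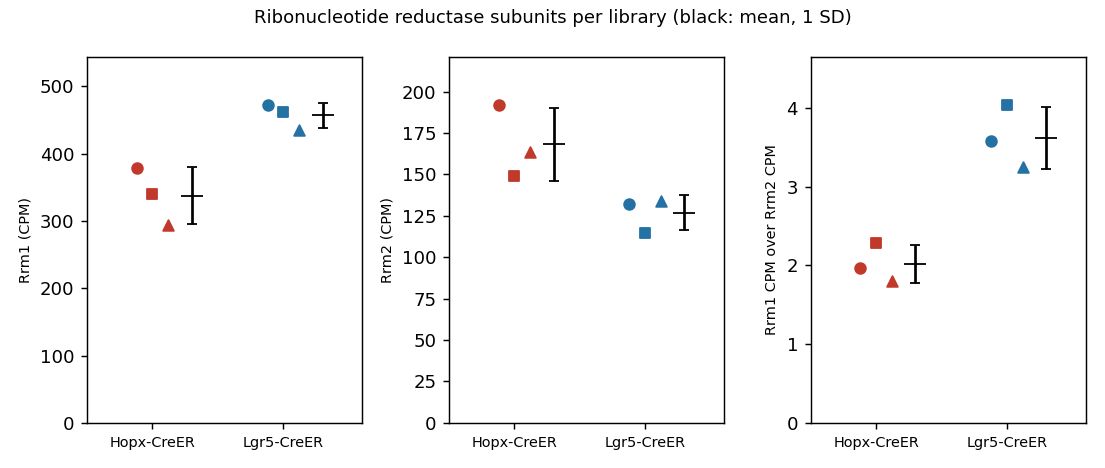
CPM of Rrm1 and of Rrm2 and their ratio in each library (red, Hopx-CreER; blue, Lgr5-CreER; circle, square and triangle, libraries 1, 2 and 3; black, mean with 1 SD, n = 3). Rrm1 is lower and Rrm2 higher in the Hopx-CreER libraries, and their ratio runs from 1.80 to 2.28 against 3.25 to 4.04.

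The other genes of deoxynucleotide supply were called by none of edgeR, DESeq2 and limma-voom. Tyms, thymidylate synthase, which makes dTMP from dUMP, had almost the same level in both groups, at 192 ± 15.2 and 191 ± 8.7 CPM (SD, n = 3 each; log2 fold change 0.01 ± 0.10 SE). Tk1, the S-phase thymidine kinase of the salvage route, stood at 188, 173 and 206 CPM against 163, 159 and 168 CPM, above in every Hopx-CreER library but with an edgeR adjusted p of 0.23. Dut, the dUTPase that keeps uracil out of DNA, ran from 85.9 to 125 CPM against 113 to 136 CPM (edgeR adjusted p 0.371). Over the 5 supply genes the median log2 fold change was 0.01.

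Both members that act on uracil or mismatches in new DNA were lower in every Hopx-CreER library without passing the test. Such a downward separation was found for 16.2% of all genes tested. Ung (ENSMUSG00000029591.14, chr5:114130386-114139323), the glycosylase that removes uracil, stood at 10.02, 7.69 and 10.5 CPM in Hopx-CreER libraries and 18.3, 16.7 and 13.6 CPM in Lgr5-CreER libraries. Its log2 fold change was -0.79 ± 0.24 (SE) with an edgeR adjusted p of 0.0609, and 0.0335 without Hopx-CreER library 3. Over all alternatives its adjusted p ran from 0.0206, in DESeq2, to 0.192. Msh6, which takes part in recognising base mismatches, stood at 108, 96.4 and 54.5 CPM against 125, 148 and 116 CPM, a log2 fold change of -0.59 ± 0.23 that was -0.36 without Hopx-CreER library 3.

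All 9 polymerase genes had a negative log2 fold change, with a median of -0.27, and 5 were separated downward (Pola1, Pola2, Prim1, Pold1 and Pold3). None passed edgeR's test, while 4 were lower at an unadjusted p under 0.05, DESeq2 called Pold3 and limma-voom called 0. Over all genes tested, 52.8% were below 0, 16.2% were separated downward and 11.1% were lower at edgeR's unadjusted p under 0.05. The roles were not tested as sets. Polymerase alpha and primase lay the short primers from which both strands are extended. Pola2, the alpha accessory subunit, stood at 116, 106 and 131 CPM against 164, 139 and 147 CPM (log2 fold change -0.35 ± 0.12, edgeR adjusted p 0.0937). The primase subunits Prim1 and Prim2 differed by -0.22 ± 0.12 and -0.27 ± 0.18 on the log2 scale. The catalytic subunit Pola1 was close to the detection limit, at 0.742 to 1.52 CPM against 2.06 to 2.94 CPM (edgeR adjusted p 0.162).

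Polymerase delta copies mainly the lagging strand and polymerase epsilon the leading strand. Pold3 (ENSMUSG00000030726.16, chr7:100082111-100121565, minus strand), an accessory subunit of delta, had the smallest p of the polymerase genes. It stood at 76.9, 56.7 and 44.7 CPM in Hopx-CreER libraries 1, 2 and 3, against 78.2, 101 and 94.4 CPM in Lgr5-CreER libraries 1, 2 and 3. The groups were separated by little, because Hopx-CreER library 1 nearly reached Lgr5-CreER library 1. The means of 59.4 ± 16.3 and 91.2 ± 11.7 CPM (SD, n = 3 each) gave a log2 fold change of -0.62 ± 0.20 (SE), with an edgeR adjusted p of 0.0743, and 0.0194 without Hopx-CreER library 1.

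The catalytic subunit Pold1 stood at 221, 207 and 258 CPM against 283, 264 and 259 CPM, nearly touching (log2 fold change -0.23 ± 0.11, edgeR adjusted p 0.223). With GC offsets the value for Pold1 was -0.47 and its adjusted p 0.0132. Pold2, the accessory subunit of delta, differed by -0.13 ± 0.11 (edgeR adjusted p 0.463). Pole, the catalytic subunit of epsilon, ran from 26.4 to 44.1 CPM against 40.3 to 62.6 CPM, which overlapped, with -0.62 ± 0.23 and an edgeR adjusted p of 0.114. Its partner subunit Pole2 differed by -0.19 ± 0.19.

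**Figure D4:**
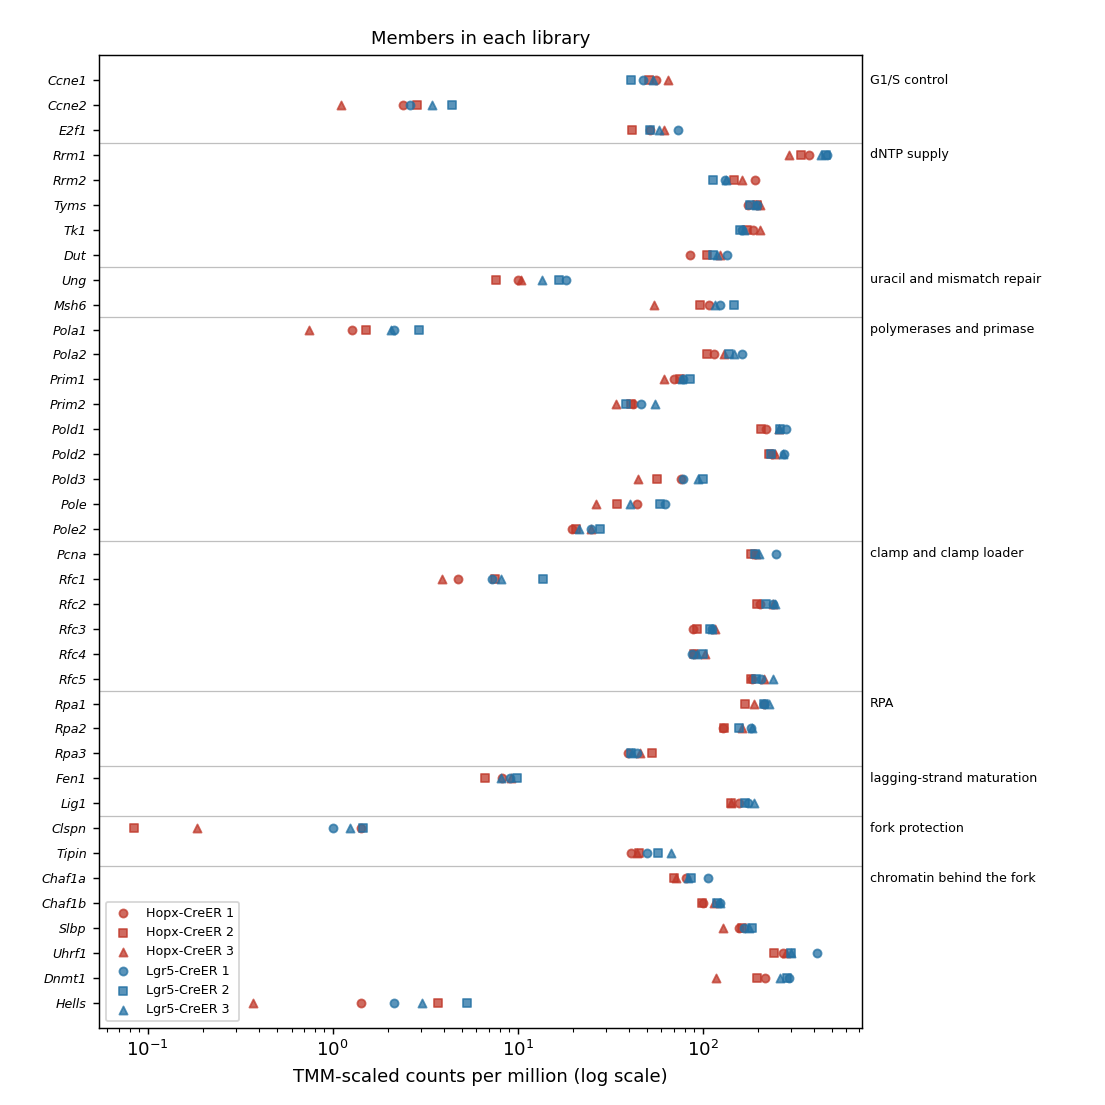
CPM of the members in each of the 6 libraries on a log axis (points, libraries; red, Hopx-CreER; blue, Lgr5-CreER). Most members lie between 20 and 500 CPM, while Clspn, Pola1, Hells and Ccne2 lie below 6 CPM in every library.

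No gene of the sliding clamp and its loader was called by edgeR, DESeq2 or limma-voom. In edgeR 1 of 6 was lower at an unadjusted p under 0.05, against 11.1% of all genes tested. Pcna, the ring that tethers polymerases to DNA, stood at 192, 182 and 196 CPM in Hopx-CreER libraries and 251, 193 and 202 CPM in Lgr5-CreER libraries (log2 fold change -0.18 ± 0.12, edgeR adjusted p 0.369). Lgr5-CreER library 1 stood above the others, which overlapped or nearly overlapped the Hopx-CreER range. The loader subunits Rfc2, Rfc3, Rfc4 and Rfc5 had log2 fold changes from -0.16 to 0.00. Rfc1 (ENSMUSG00000029191.16, chr5:65261850-65335670), the large loader subunit, had the smallest p in this role, at 4.75, 7.53 and 3.90 CPM against 7.30, 13.6 and 8.19 CPM. The groups overlapped, and its log2 fold change of -0.84 ± 0.36 had an edgeR adjusted p of 0.166.

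The single-strand binding protein RPA coats unwound DNA. Rpa2 (ENSMUSG00000028884.14, chr4:132768332-132778752), its regulatory middle subunit, stood at 129, 131 and 164 CPM in Hopx-CreER libraries and 183, 158 and 185 CPM in Lgr5-CreER libraries. Hopx-CreER library 3 reached into the Lgr5-CreER range. The log2 fold change was -0.31 ± 0.13 with an edgeR adjusted p of 0.155, and -0.44 with 0.021 without that library. Rpa1, the large DNA-binding subunit, differed by -0.20 (edgeR adjusted p 0.297), and Rpa3, the small one, by 0.13 ± 0.15.

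Of the genes that finish lagging strands, Lig1 (ENSMUSG00000056394.17, chr7:13277283-13311433), the ligase that seals Okazaki fragments, stood at 158, 142 and 143 CPM in Hopx-CreER libraries and 176, 169 and 190 CPM in Lgr5-CreER libraries. The groups did not overlap, yet the log2 fold change of -0.27 ± 0.10 had an edgeR adjusted p of 0.129. Fen1, the flap nuclease that trims the fragments, stood at only 6.68 to 9.18 CPM against 8.12 to 9.93 CPM. For Fen1, 78.8% of the exon bases are shared with Gm10143 on the opposite strand, the kit does not mark strand, and how reads in shared bases were counted is not known from the sources. Gm10143 itself was listed at no more than 0.602 CPM.

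Fork protection was measured by Tipin, partner of Timeless in the complex that keeps polymerase and helicase together, and by Clspn, which encodes Claspin, the adaptor that passes the stalled-fork signal to CHK1. Tipin (ENSMUSG00000032397.6, chr9:64281581-64305424) stood at 41.3, 45.5 and 44.1 CPM in Hopx-CreER libraries and 50.3, 57.4 and 67.8 CPM in Lgr5-CreER libraries. It was lower in every Hopx-CreER library, with a log2 fold change of -0.42 ± 0.15 and an edgeR adjusted p of 0.1. Clspn gave 19, 1 and 2 counts against 15, 17 and 18 counts, so Hopx-CreER library 1 was as high as the Lgr5-CreER libraries and the log2 fold change of -1.05 ± 0.79 had an edgeR adjusted p of 0.426. Without that library the Clspn value was -3.10 with an adjusted p of 0.0331, which rests on 3 Hopx-CreER counts.

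The 6 genes that restore chromatin and DNA methylation behind the fork all had negative values, with a median of -0.33, and 5 were separated downward. Of all genes tested, 52.8% were below 0 and 16.2% were separated downward, and this role was not tested as a set. Dnmt1 (ENSMUSG00000004099.15, chr9:20907209-20959888, minus strand), the maintenance methyltransferase, stood at 218, 197 and 119 CPM in Hopx-CreER libraries 1, 2 and 3, against 294, 286 and 261 CPM in Lgr5-CreER libraries 1, 2 and 3. All 3 Hopx-CreER values were lower, library 3 by far the most. The means were 178 ± 51.9 and 280 ± 16.9 CPM (SD, n = 3 each), with a log2 fold change of -0.66 ± 0.20 and an edgeR adjusted p of 0.0603.

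Dnmt1 missed the threshold but was called in 9 of 17 alternative fits, with adjusted p from 0.0072 to 0.165. Without Hopx-CreER library 3 its log2 fold change was smaller, at -0.45, and its edgeR adjusted p lower, at 0.0209. Uhrf1, which brings DNMT1 to hemimethylated DNA, stood at 271, 244 and 284 CPM against 418, 302 and 299 CPM, separated, but with 1 high Lgr5-CreER library (log2 fold change -0.35 ± 0.15, edgeR adjusted p 0.158). The CAF-1 subunits Chaf1a and Chaf1b, which place new histones at the fork, differed by -0.31 ± 0.14 and -0.22 on the log2 scale. Slbp, which binds the stem-loop of replication-dependent histone mRNA, differed by -0.24. Hells, a chromatin remodeller needed for DNA methylation, gave 19, 44 and 4 counts against 32, 62 and 44 counts and overlapped.

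Some of these values may hold reads of other genes. Chaf1a shares 52.5% of its exon bases with Ubxn6 on the opposite strand, which was listed at 56.4 to 77.1 CPM. Ccne2 shares 17.4% with Ints8, at 2.88 to 20.7 CPM, and Rfc4 shares 12.7% with Eif4a2, at 40.6 to 65.4 CPM. Rfc5 shares 10.7% with Wsb2, at 152 to 175 CPM in Hopx-CreER and 97.8 to 115 CPM in Lgr5-CreER libraries. Rfc2 shares 15.1% with Lat2, which was listed at no more than 0.0753 CPM. Pcna has a copy, Pcna-ps2, that matches it over 781 bases at 99.2% identity and was listed at 2.18 to 16.6 CPM, and how reads that match both were counted is not known. Uhrf1 is matched by Gm5648 over 1590 bases at 98.3% identity, listed at no more than 2.88 CPM, and Tyms by 19 copies. No such overlap or copy was found for Rrm1, Dnmt1, Ung or Pold3, and Rrm2 has 1 copy, Gm48455, of 419 matching bases.

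Levels between members were compared per kilobase of the longest annotated transcript. In Lgr5-CreER cells Pold2 was the highest at 158 ± 14.3 CPM per kb (SD, n = 3), followed by Pcna at 142 ± 20.5 CPM per kb, which did not differ beyond that spread. Per kilobase of merged exons these were 137 and 89.8 CPM per kb, still the highest levels but apart by more than the spread, so the distance between members depends on the length used. Rpa2 at 96.8 CPM per kb and Uhrf1 at 94.7 CPM per kb came next, and Rrm1 stood at 83.5 ± 3.45 CPM per kb, or 41.5 CPM per kb of merged exons. At the other end were Ccne2 at 1.16, Hells at 0.598, Pola1 at 0.445 and Clspn at 0.246 CPM per kb. Along the order, 16 of 37 neighbouring pairs were apart by more than the larger SD of the pair. The order was nearly the same in Hopx-CreER cells (Spearman rho 0.98 across the 38 members, which share libraries and are not independent).

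Hopx-CreER library 3 moved several of the values above. Against the mean of Hopx-CreER libraries 1 and 2, its log2 level was -0.91 for Msh6, -0.80 for Dnmt1, and -0.58 each for Pold3 and Pole, but 0.40 for E2f1, 0.38 for Dut and 0.35 for Rfc3. Members with longer transcripts were lower in it (Spearman rho of that log2 level with transcript length -0.53 across 38 members, and -0.41 across the 31 members with a Hopx-CreER mean of at least 10 CPM). With GC content, rho was 0.38 across the 38 members and 0.21 across those 31. Over all 8163 genes at that level, rho was -0.37 with length and 0.52 with GC content. These are descriptions over genes of the same libraries, with no test. Fits with GC offsets gave a members' median of -0.27, against -0.24 without them, and the part of transcript length in the group differences was not tested. Without this library the members' median was -0.31.

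**Figure D5:**
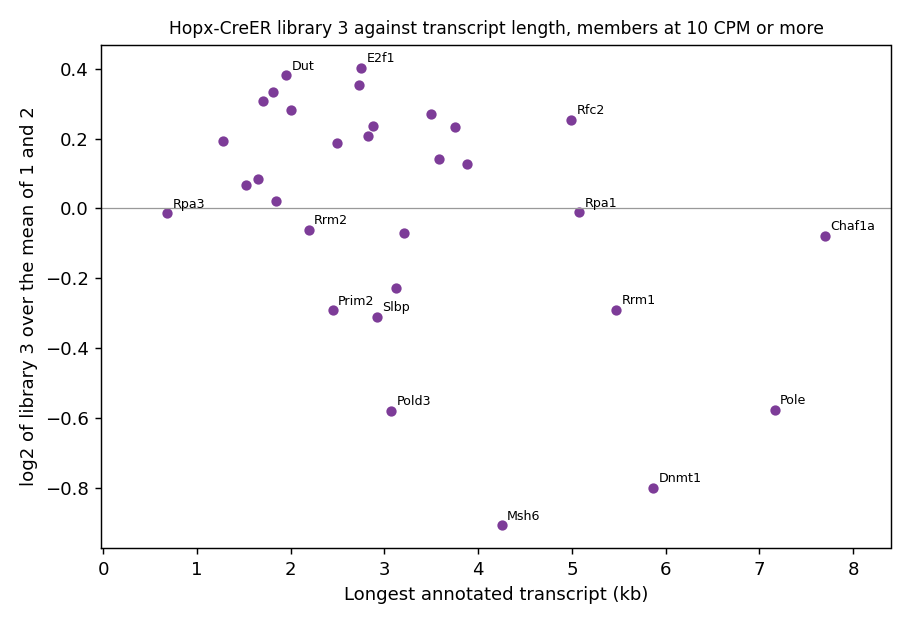
Log2 level of each member in Hopx-CreER library 3 against the mean of Hopx-CreER libraries 1 and 2, plotted by length of the longest transcript in kb (points, the 31 members with a Hopx-CreER mean of at least 10 CPM). Msh6, Dnmt1, Pole and Pold3 lie lowest, and E2f1, Dut and Rfc3 lie highest.

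Other genes of the same processes were counted in the same way, where edgeR called 3.3% of all genes tested lower and 9.45% higher. The lists differ in size and were not tested against each other or against the members, so their counts are not ranked. Of 24 other fork and elongation genes tested, 2 fell and 0 rose, with a median of -0.32. They were Timeless, the partner of Tipin, at 49.3 ± 2.98 against 69.3 ± 3.84 CPM (SD, n = 3 each; edgeR adjusted p 0.0317), and Wdhd1, which links polymerase alpha to the helicase, at 26.1 ± 8.12 against 49.3 ± 6.11 CPM (edgeR adjusted p 0.0339). Leaving out 1 library kept the call for Timeless in 1 of 6 fits and for Wdhd1 in 2 of 6.

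Of 32 other nucleotide synthesis genes, 4 fell, against 3.3% of all genes tested, with a median of -0.26. Paics, which carries out steps of purine synthesis, stood at 135, 149 and 119 CPM in Hopx-CreER libraries and 214, 200 and 212 CPM in Lgr5-CreER libraries, and fell by 0.64 ± 0.11 (SE) on the log2 scale (edgeR adjusted p 0.00718). Ppat, the first committed enzyme of that route, fell by 0.76 ± 0.17 (edgeR adjusted p 0.0168). Paics was called in all 6 fits that left out 1 library, and Ppat in 4 of 6. The remaining genes that fell were Ctps and Prps2.

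Among 16 other chromatin and repair genes of S phase, 4 fell and 0 rose, against 3.3% and 9.45% of all genes tested, with a median of -0.46. Ssrp1, a subunit of the histone chaperone FACT, fell by 0.41 (edgeR adjusted p 0.0297), Hat1, which acetylates new histone H4, by 0.46 (0.0328), and Lmnb1, lamin B1, by 0.46 (0.0401), each kept in 1 or 2 of 6 fits that left out 1 library. Exo1 was the other. Of 14 checkpoint genes tested, with a median of -0.36, edgeR and limma-voom called 0 and DESeq2 called 1 lower. In edgeR 4 were lower at an unadjusted p under 0.05, against 11.1% of all genes tested. Of 9 E2F and DP genes, E2f2 rose, at 86.6, 70.9 and 84.0 CPM against 44.1, 38.8 and 43.0 CPM (log2 fold change 0.94 ± 0.13, edgeR adjusted p 0.00285, called in 6 of 6 such fits), and the list's median was -0.24. E2f2 encodes an activating E2F factor, as E2f1 does, and E2f1 did not pass the test.

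The licensing genes left out of the group gave 3 of 11 lower (Mcm6, Mcm3 and Mcm2) and 0 higher, with a median of -0.39. The shares of all genes tested were 3.3% lower and 9.45% higher. Mcm6, a helicase subunit, stood at 543 ± 34.7 against 781 ± 14.5 CPM (SD, n = 3 each; edgeR adjusted p 0.00926), and was called in 6 of 6 fits that left out 1 library, while Mcm3 and Mcm2 were each called in 1 of 6. Of 20 mitosis genes, with a median of -0.11, 0 were called in either direction by edgeR, DESeq2 or limma-voom. In edgeR 2 were lower at an unadjusted p under 0.05, against 11.1% of all genes tested.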

How the data were processed

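Bulk RNA sequencing was done on 6 libraries, 3 Hopx-CreER and 3 Lgr5-CreER. Per the labels' protocols, cells were sorted into TRIzol LS and libraries made with SMART-Seq v4 and Nextera XT, which do not mark strand. The authors deposited 1 table of unnormalized counts per mouse Ensembl gene, all whole numbers, and 0 of its columns were left unused here. The submitters' processing notes name the build GRCh38 beside the tools kallisto and edgeR. That is a human build, so it does not describe these mouse identifiers. The annotation, counting mode and tool versions are not given in the sources used here.

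Columns name the gate but no replicate, so libraries were numbered by column order, as names only. Symbols and positions came from GENCODE M21 (GRCm38), which matched 23479 of 23565 identifiers. Groups were compared in R 4.3.3 by the quasi-likelihood F-test of edgeR 4.0.16 (TMM factors, filterByExpr defaults, Benjamini-Hochberg adjustment over 12439 genes, threshold 0.05). A positive log2 fold change means a higher level in Hopx-CreER cells, SEs come from the F statistic, and SDs are between 3 libraries. With 3 libraries against 3, an exact permutation test of a single value cannot go below p = 0.1, so none was used. Totals of 10839306 to 14570555 counts make 3 counts worth 0.20 to 0.28 CPM. Reads lack molecular identifiers and are not independent molecules. The script was tested on simulated data.

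Members, lists and tests were chosen with earlier results of these data known. Called members and the member with the smallest p in each of the 9 roles are given in full, and up to 3 called genes of each other list. A result of the other nucleotide synthesis genes is not reported here. Rrm2, other members given by library, the Rrm1 to Rrm2 ratio, and further genes named to complete a count were picked with their values in view. The alternatives comprised RLE, upper quartile and library-total scaling, other filters, GC offsets, scaling without differentiated markers, summed Lgr5-CreER columns, each library left out, DESeq2 1.42.0 and voom in limma 3.58.1. Shared exons and copies (at least 95% identity over 200 bases) were found against the annotation and its transcripts.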

Additional observations from a re-analysis of the deposited data

How the results depend on the processing

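No paired analysis was possible because the columns carry no replicate numbers that pair libraries across the groups. The members' median log2 fold change stayed below 0 in all 17 alternative fits, from -0.35 to -0.22, and 34 of 38 members kept their sign. The count of members called was less stable. It was 2 lower under RLE factors, upper quartile factors and limma-voom, where 3.39%, 4.24% and 3.3% of all genes were lower. With library totals alone it was 7 (5.86% of all genes), and 4 with no filter (2.85%) and in DESeq2 (3.17%). GC offsets gave 3 lower and 1 higher (5.51% and 9.1%). It was 0 with the Lgr5-CreER columns sharing a number summed, where only 1.02% of all genes were lower. It was also 0 at an adjusted p under 0.01, where 5.26% of all genes were called. Leaving out 1 library gave 0 to 5 lower, with fewer samples in each fit, where 0.911% to 4.6% of all genes were lower. Summing the columns sharing a number and also leaving out Hopx-CreER library 3 gave 2 lower and a median of -0.30. In that fit, an alternative chosen after seeing the data, 2.72% of all genes were lower. The median was -0.35 with library totals alone and ran from -0.31 to -0.22 over fits leaving out 1 library, and the ratio of summed CPM was 0.787 with library totals alone. Per kilobase of merged exons, Lgr5-CreER levels were 137 CPM for Pold2, 89.8 for Pcna and 41.5 for Rrm1, which went from rank 5 to rank 11. Apart from the scaling and the sample numbers, the cause of these changes was not tested. Of the members, 13 were called in at least 1 alternative and 25 in none. The share of all genes called in at least 1 alternative was not computed, so these counts do not show a trait of the members. For genes near the detection limit, with SEs from 0.42 (Pola1) to 0.79 (Clspn), a difference of the size seen for Rrm1 was not detectable at this depth. The limit was not confined to such genes. In simulated counts with the means and spread of these libraries, edgeR called 10.3% of 78 genes changed 1.5-fold and 45.6% of 59 changed 2-fold. The changed genes were drawn at random from all 12439, at any level. Far fewer genes were changed than were called in the real data, so these shares do not give the power for the members. A member that was not called is therefore not shown to be unchanged.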

Other observations

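Genes linked to proliferation or replication differed widely in CPM within the same libraries, without correction for transcript length. Mki67, a common proliferation marker, stood at 1.05, 1.44 and 0.742 CPM in Hopx-CreER libraries 1, 2 and 3, against 2.34, 3.28 and 2.62 CPM in Lgr5-CreER libraries 1, 2 and 3, whereas Cdk1, the mitotic kinase, stood at 193, 202 and 214 CPM and at 188, 186 and 193 CPM. Mki67 was thus lower in every Hopx-CreER library (log2 fold change -1.33 ± 0.41 SE, edgeR adjusted p 0.0642), and Cdk1 differed by 0.10 ± 0.10 (edgeR adjusted p 0.545). Atr, the kinase that senses stalled forks, stood at 0.557 to 0.676 CPM against 1.03 to 1.81 CPM (edgeR adjusted p 0.17). Top2a ran from 13.8 to 28.9 CPM against 29.1 to 51.3 CPM (edgeR adjusted p 0.186). These genes were chosen after their values were seen. Mki67 and Atr lay near the floor, and a downward separation like that of Mki67 was found for 16.2% of all genes tested. Of the 20 mitosis genes, edgeR called 0, with a median of -0.11.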
